A study of Bos taurus with 6 samples.

Results

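The genes described are regulators of apoptosis: the BCL2 family members BCL2, BCL2L1, MCL1 and BAX, the death receptors FAS and TNFRSF21, the FAS ligand FASLG and the initiator caspase CASP8. Every probe set to which the array annotation gives one of these 8 symbols was taken, which found 12 of the 24016 probe sets of the table, for 7 of the 8 genes. BCL2 had 5 probe sets, FASLG had 2, and BCL2L1, MCL1, BAX, FAS and TNFRSF21 had 1 each. The annotation gave no probe set to CASP8, which was not analysed here. Endothelial cells were freed from bovine aorta with collagenase, grown as primary cultures in RPMI medium and either left untreated (basal) or given TGF-beta 1 at 5 ng/ml for 24 hours. RNA from 3 basal and 3 treated samples was hybridised to an Affymetrix bovine array, and the arrays are called basal 1 to 3 and treated 1 to 3 after the replicate numbers of their labels. The labels speak of 3 cultures and are silent on the number of animals, so the p-values measure only the spread between these samples, which may be technical. No group carries a genetic change.

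A cell decides on the mitochondrial route to apoptosis through the BCL2 family. BCL2, BCL2L1 (BCL-XL) and MCL1 hold the effectors BAX and BAK1 in check at the outer mitochondrial membrane, and BH3-only proteins such as BAD release them. On the other route, ligands such as FASLG engage death receptors, whose adaptor FADD brings CASP8 to the membrane. TGF-beta is known to promote apoptosis or survival of endothelial cells depending on the setting.

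The arrays carried an endothelial signature. Of 11 endothelial markers found, 9 had a mean above the 75th percentile of the arrays, PECAM1 and CDH5 among them, while VWF lay between the median and that percentile and KDR lay below the median. The mean of these 11 markers ran from 9.40 to 9.97 log2 on basal and from 9.15 to 9.35 on treated arrays, with 1 of 11 past the threshold (CLDN5, lower by limma adjusted p = 0.0474, from 0.00733 without basal 3 to 0.254 without treated 2 over its alternatives). Leukocyte markers lay at means of 4.77 to 4.92 and 4.88 to 4.92, smooth muscle markers at 6.10 to 6.16 and 6.07 to 6.18, and fibroblast markers at 7.04 to 7.15 and 7.07 to 7.28 on basal and treated arrays. The fibroblast list was split, with 2 of 6 above the 75th percentile and 3 below the median. The bright ones were COL1A2 (basal and treated means 10.91 and 11.85 log2) and COL3A1 (10.78 and 10.65). The first principal component, with 63.4% of the variance, did not follow treatment: basal 1, basal 2 and treated 1 lay at -67.75, -38.82 and -10.28, and basal 3, treated 2 and treated 3 at 36.04, 39.46 and 41.36. The actin control signal at the 3′ end exceeded that at the 5′ end by 1.31 to 1.70 log2 on basal and by 1.31 to 1.86 on treated arrays. Array medians lay between 5.88 and 5.92 log2, and with so few arrays the precision of each value is limited by their number.

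The comparison of treated with basal cultures asked whether TGF-beta 1 shifts these apoptosis regulators. None of the 12 probe sets passed the limma threshold (adjusted p under 0.05 over all 24016 probe sets), against 158 (0.658%) of all probe sets (0.304% higher, 0.354% lower), and no alternative setting called one. Their differences ran from -0.46 log2 for BAX to 0.58 log2 for TNFRSF21, 6 higher and 6 lower after treatment, with a median of 0.007 log2 against -0.01 over all probe sets. The median size of the difference, regardless of sign, was 0.27 log2 for the members and 0.14 for all probe sets. At an unadjusted limma p under 0.05 stood 2 of the 12, BCL2 by probe set Bt.9742.1.S1_at and TNFRSF21, where the share of all probe sets was 13.7%. The treated arrays did not overlap with the basal arrays in 4 of the 12, 2 higher and 2 lower, against 19.2% of all probe sets (7.61% higher, 11.6% lower). For 9 of the 12 the 95% interval of the difference lay within 1 log2 of no change in either direction. The other 3 were BAX and a pair of BCL2 probe sets. Among those 9 are the 5 members with a mean below the array medians. RMA compresses changes near background, so their intervals may not bound the change in transcript. In 7 of the 12 (58.3%) the SD of the more variable group was larger than the difference, against 67.2% of all probe sets.

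**Figure D1:**
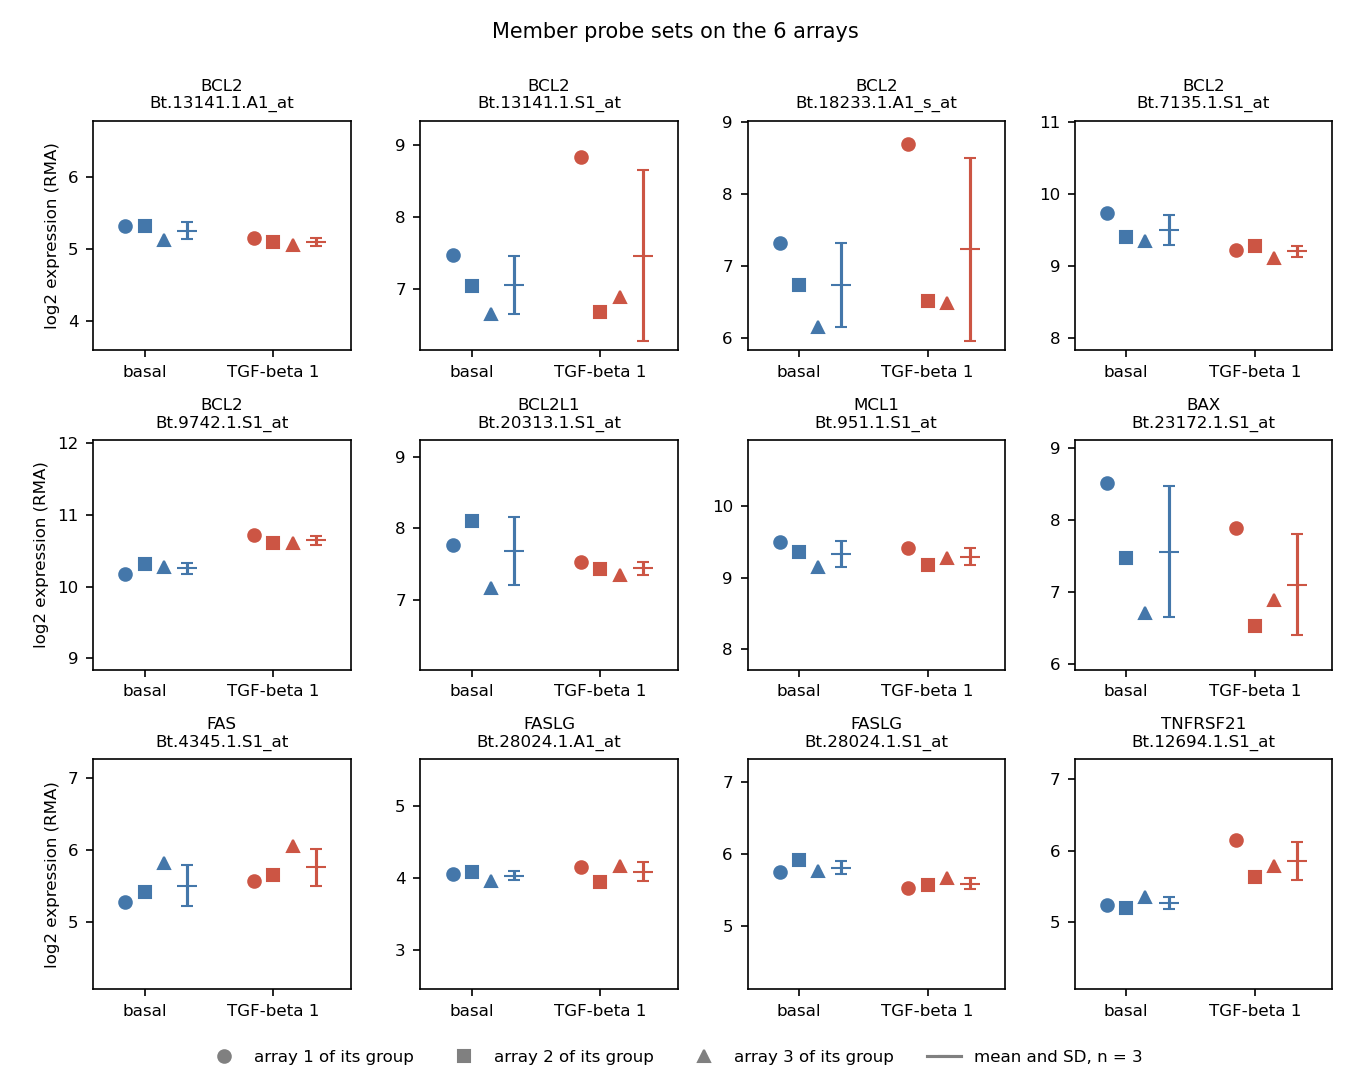
Log2 expression (RMA) of each member probe set on the 3 basal (blue) and 3 treated (red) arrays, with the group mean and SD (n = 3) to the right of the points; every panel spans the same number of log2 units. The treated points of TNFRSF21 and of BCL2 Bt.9742.1.S1_at lie above all basal points, and treated 1 stands far above the other arrays in BCL2 Bt.13141.1.S1_at and Bt.18233.1.A1_s_at.

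BCL2, the founding survival protein of the family, gave different readings by probe set. On Bt.9742.1.S1_at, the brightest of the 5, BCL2 read 10.17, 10.32 and 10.27 log2 on basal 1 to 3 and 10.71, 10.61 and 10.60 on treated 1 to 3. All treated arrays lay above all basal arrays, and the spread within each group was small. The means were 10.25 ± 0.08 and 10.64 ± 0.06 log2 (SD, n = 3 each), a difference of 0.39 log2 (SE 0.09), or 1.31-fold with a 95% interval of 1.13 to 1.52, and the limma adjusted p was 0.13. The second brightest, Bt.7135.1.S1_at, lay the other way. Both are tied to BCL2 by the array annotation alone, which was not checked against sequence here, and they correlated at -0.827 over the 6 arrays. It read 9.73, 9.40 and 9.34 log2 on the basal arrays and 9.22, 9.27 and 9.11 on the treated arrays, a difference of -0.29 log2 (SE 0.13, limma adjusted p = 0.408). Here all treated arrays lay below all basal arrays, although basal 3 and treated 2 were close. Each of these 2 probe sets kept its sign in all 6 fits that left out 1 array, from 0.35 to 0.42 log2 for Bt.9742.1.S1_at and from -0.36 to -0.17 for Bt.7135.1.S1_at.

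On the BCL2 probe set Bt.13141.1.S1_at the values were 7.46, 7.04 and 6.65 log2 in basal and 8.83, 6.67 and 6.88 in treated cultures. Treated 1 was the highest of all arrays, while treated 2 and 3 lay within the basal range. Bt.18233.1.A1_s_at read 7.32, 6.73 and 6.14 log2 on the basal arrays and 8.70, 6.52 and 6.48 on the treated arrays, the same picture. The profiles of both probe sets over the arrays were nearly the same, with a Pearson correlation of 0.991 over the 6 arrays. Their differences were 0.41 log2 (SE 0.60) and 0.50 log2 (SE 0.67), with limma adjusted p = 0.826 and 0.808. Without treated 1 they were -0.27 and -0.24 log2, so the sign rested on that array. Bt.13141.1.A1_at, which the annotation ties to the same target sequence as Bt.13141.1.S1_at, lay near 5 log2 on every array, at 5.31, 5.32 and 5.12 in basal and 5.15, 5.09 and 5.05 in treated cultures. Its difference was -0.16 log2 (SE 0.10, limma adjusted p = 0.556), and its correlation with Bt.13141.1.S1_at over the arrays was 0.179. Thus 3 of the 5 BCL2 probe sets stood higher and 2 lower in treated cultures, and none passed the threshold. A probe set whose name ends in s_at holds probes that can bind more than one transcript, and the files do not give the probe sequences.

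**Figure D2:**
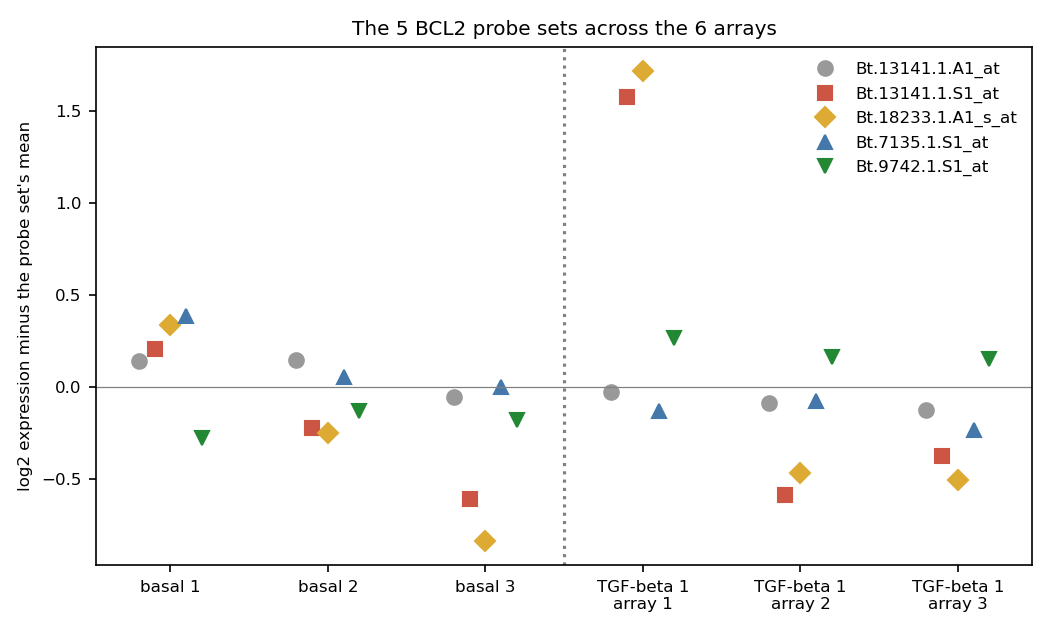
Log2 expression of the 5 BCL2 probe sets on each array, each minus its own mean over the 6 arrays (vertical axis, log2 units); the dotted line separates basal from treated arrays. Bt.9742.1.S1_at lies above its mean on the 3 treated arrays and Bt.7135.1.S1_at below its mean there, while Bt.13141.1.S1_at and Bt.18233.1.A1_s_at are raised on treated 1 and below their means on treated 2 and 3.

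BCL2L1 encodes BCL-XL, a survival protein of the mitochondrial membrane. It read 7.77, 8.10 and 7.17 log2 on basal 1 to 3 and 7.53, 7.44 and 7.36 on treated 1 to 3. The treated arrays lay close together within the wide basal range, so the groups overlapped. The difference was -0.24 log2 (SE 0.24, 95% interval -0.82 to 0.35, limma adjusted p = 0.738). It lay between -0.49 log2 without basal 3 (limma adjusted p = 0.0883) and -0.03 without basal 2.

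MCL1, a short-lived survival protein, was the member with the smallest difference. It read 9.49, 9.36 and 9.14 log2 in basal and 9.42, 9.18 and 9.28 in treated cultures. The groups overlapped, with every treated array inside the basal range. The difference was -0.04 log2 (SE 0.13), or 0.973-fold with a 95% interval of 0.786 to 1.21, and the limma adjusted p was 0.93. Its sign turned without basal 1 (0.04) or treated 2 (0.02).

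BAX, the effector that opens the outer mitochondrial membrane, varied widely within both groups. It read 8.51, 7.47 and 6.70 log2 on basal 1 to 3 and 7.88, 6.52 and 6.89 on treated 1 to 3. The highest values were those of basal 1 and treated 1, and the lowest those of treated 2 and basal 3, so that the order of the arrays did not follow treatment. The group means were 7.56 ± 0.91 and 7.10 ± 0.71 log2 (SD, n = 3 each). The difference of -0.46 log2 (SE 0.55, limma adjusted p = 0.78) had a 95% interval of -1.80 to 0.88, which spans from 0.286-fold to 1.85-fold. It was 0.015 without basal 1 and -0.89 without basal 3. With the replicate number as a block its SE was 0.25 (limma adjusted p = 0.401). BAX and MCL1 ranked the arrays nearly alike, with a correlation of 0.962 over the 6 arrays, and both were higher on basal 1, basal 2 and treated 1 than on basal 3, treated 2 and treated 3. With the arrays basal 1, basal 2 and treated 1 set against the others as a block, the BAX difference was -0.05 log2 (SE 0.29, limma adjusted p = 0.956) and that of MCL1 was 0.04 (SE 0.09, limma adjusted p = 0.868). The labels give no such block, and it matches the split of these same values on the first principal component. What sets these arrays apart was not tested.

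TNFRSF21, a death receptor also known as DR6, had the largest difference among the members. It read 5.25, 5.20 and 5.36 log2 on basal 1 to 3 and 6.14, 5.63 and 5.79 on treated 1 to 3. Every treated array lay above every basal array, and treated 1 was the highest. The means were 5.27 ± 0.08 and 5.85 ± 0.26 log2 (SD, n = 3 each), a difference of 0.58 log2 (SE 0.15), or 1.5-fold with a 95% interval of 1.16 to 1.94. The limma adjusted p was 0.168, and the difference ran from 0.44 log2 without treated 1 to 0.70 over the fits that left out 1 array. The means of both groups lay below the array medians, and RMA values carry no detection call, so neither level was shown to exceed background. TNFRSF21 and BCL2 Bt.9742.1.S1_at had a correlation of 0.912 over the 6 arrays. Both stood higher on all treated arrays, which alone raises such a correlation, and their order on the basal arrays differed.

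FAS, the receptor of FASLG, read 5.27, 5.41 and 5.82 log2 in basal and 5.57, 5.65 and 6.05 in treated cultures. The groups overlapped, since basal 3 lay above treated 1 and treated 2, although each treated array lay above the basal array of the same number. The difference was 0.25 log2 (SE 0.20, 95% interval -0.23 to 0.73, limma adjusted p = 0.651), and it ran from 0.11 to 0.41 over the fits that left out 1 array, the latter without basal 3. The means of both groups lay below the array medians here too.

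FASLG, the FAS ligand of cytotoxic lymphocytes, was measured by 2 probe sets that the annotation ties to the same target sequence. On Bt.28024.1.S1_at it read 5.75, 5.92 and 5.77 log2 in basal and 5.52, 5.56 and 5.67 in treated cultures. All treated arrays lay below all basal arrays by a small margin, with a difference of -0.23 log2 (SE 0.09, 95% interval -0.46 to 0.003, limma adjusted p = 0.371). Bt.28024.1.A1_at read 4.06, 4.08 and 3.96 log2 in basal and 4.16, 3.94 and 4.16 in treated cultures, with overlapping groups, a difference of 0.05 log2 (SE 0.10) and a limma adjusted p of 0.872. The group means of both FASLG probe sets lay below the array medians, and those of the second lay below the 25th percentile too. Of 10 leukocyte markers 8 lay below the median, among them PTPRC at 3.89, 3.87 and 3.93 log2 on the basal arrays and CD3E at 4.37, 4.15 and 3.78. In bulk samples such as these, fewer cells of a type and less RNA per cell cannot be told apart.

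**Figure D3:**
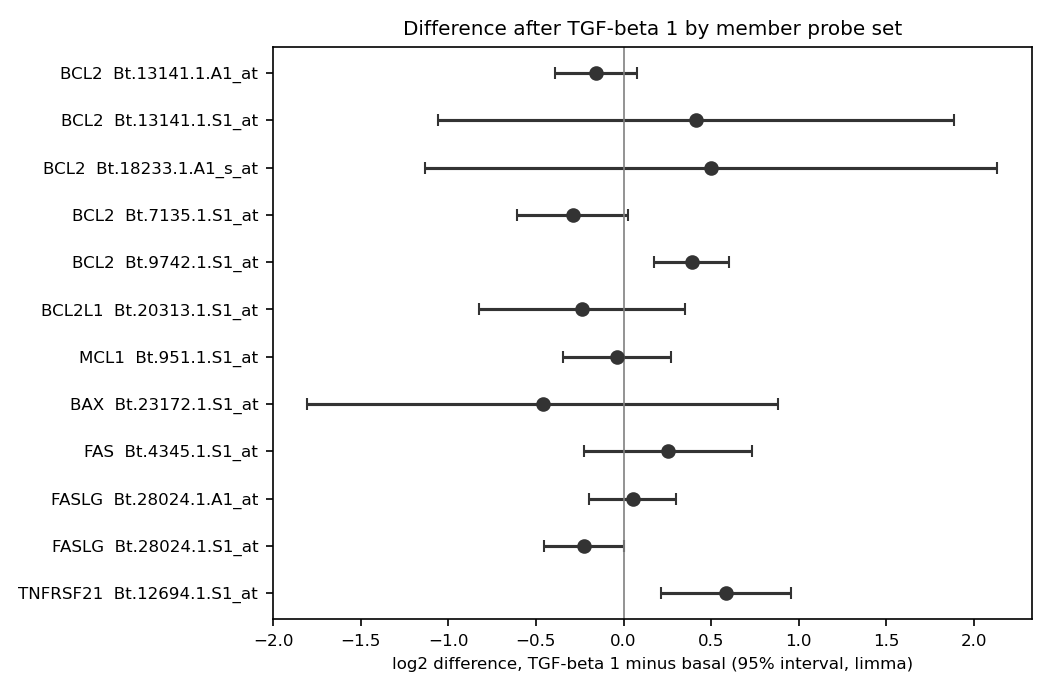
Difference between treated and basal cultures in log2 units for each member probe set (points, horizontal axis), with 95% intervals from the limma fit (bars, 3 arrays against 3). The intervals of TNFRSF21 and BCL2 Bt.9742.1.S1_at lie above 0 before adjustment for the 24016 probe sets, and those of BAX and of BCL2 Bt.13141.1.S1_at and Bt.18233.1.A1_s_at are the widest.

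The exact permutation test of a single probe set cannot give a two-sided p below 0.1 with 3 arrays against 3. It gave that smallest value for TNFRSF21, BCL2 Bt.9742.1.S1_at, BCL2 Bt.7135.1.S1_at and FASLG Bt.28024.1.S1_at, and from 0.2 to 0.8 for the others. Groups that do not overlap always give 0.1 here, so this repeats the count of such probe sets given above (19.2% of all probe sets).

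BCL2 Bt.9742.1.S1_at was the member probe set with the smallest unadjusted p, and the genes with the most similar profile were sought for it among 9154 others, 1 probe set each. SYNCRIP, an RNA-binding protein, correlated with it at 0.998 over the 6 arrays, OLR1, the endothelial receptor of oxidised low-density lipoprotein, at 0.993, and RAP1GDS1, an exchange factor of small GTPases, at 0.992. Of these OLR1 rose by 1.38 log2 (limma adjusted p = 0.0469), while SYNCRIP stood at 0.55 and RAP1GDS1 at 0.32 log2 (limma adjusted p = 0.0933 and 0.21). The call of OLR1 held without basal 3 (1.38 log2, limma adjusted p = 0.0257) and ended without any other single array (limma adjusted p = 0.117 to 0.254), while SYNCRIP passed with the array block described for BAX (0.57 log2, limma adjusted p = 0.036). The call of OLR1 also ended with a further quantile normalization, robust eBayes and the replicate number as a block (limma adjusted p = 0.0501, 0.0505 and 0.116). These correlations were the highest of 9154 over only 6 arrays and are given as a description. The BCL2 probe set was picked by its treatment p, so genes that follow its profile stand higher in treated cultures by selection. Their differences are therefore no separate evidence of a treatment effect.

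The wider apoptosis machinery was read from 70 listed genes in 8 roles, of which 41 had a probe set, the brightest of each being used. None of the 41 passed the limma threshold, against 93 of 9155 genes (1.02%) by their brightest probe sets, while 8 of 41 (19.5%) stood at an unadjusted p under 0.05 against 18.4% of all genes. The groups did not overlap in 12 of 41 (29.3%), 8 higher and 4 lower, against 23.3% of all genes (8.18% higher, 15.1% lower). The median difference was 0.02 log2, against -0.03 over all genes by the brightest probe set. Without basal 3, 4 of the 41 (9.76%) passed against 12.5% of all genes, BIRC3 higher and BAD, HTRA2 and BIRC5 lower. With basal 1, basal 2 and treated 1 set against the others as a block, 4 (9.76%) passed against 8.07% of all genes. These were BCL2L2 and TNFRSF12A, higher, and TNFRSF1A and BIRC5, lower. The labels do not give this block, which matches the first principal component of these same values, so its calls are no independent finding. Over 15 alternatives at the 0.05 threshold BIRC5 passed in 2 and each of the others named here in 1. Their highest limma adjusted p ranged from 0.328 (BCL2L2) to 0.725 (TNFRSF1A). Without basal 3 the remaining basal arrays lie with treated 1 on the first principal component, opposite treated 2 and 3. Treatment is then partly confounded with that split. It is partly confounded with it in the main fit too, where basal 1 and basal 2 lie with treated 1, and basal 3 with treated 2 and 3.

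Among the 5 measured survival proteins of the BCL2 family none was called. The groups did not overlap and stood higher in treated cultures in 3 of the 5 (BCL2L2, BCL2A1 and BCL2), against 8.18% of all genes. The list is short and was chosen with earlier results of these data known. For BCL2 this held by its brightest probe set only, since its second brightest lay the other way. BCL2L2 (BCL-W) had the smallest adjusted p of the 41 genes. It read 6.44, 6.24 and 6.18 log2 in basal and 6.97, 6.79 and 7.02 in treated cultures, so that every treated array lay above every basal array. Its difference was 0.63 log2 (SE 0.11), or 1.55-fold (1.28 to 1.89), with a limma adjusted p = 0.0847, and with the array block 0.67 (0.0291). BCL2L2 passed in no other alternative (limma adjusted p up to 0.328, without basal 2). BCL2A1 stood at 0.10 log2 (SE 0.08, limma adjusted p = 0.681), and its means of 5.34 log2 in basal and 5.44 in treated cultures lay below the array medians.

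Of 7 measured pro-apoptotic effectors and BH3-only or related proteins, none was called and the median was -0.10 log2. BAD, a BH3-only protein that binds the survival members, read 8.73, 8.71 and 8.02 log2 in basal and 7.71, 7.58 and 7.75 in treated cultures. All treated arrays lay below all basal arrays, and basal 3 lay nearest to them. The difference was -0.81 log2 (SE 0.21, limma adjusted p = 0.168), and without basal 3 it was -1.04 (limma adjusted p = 0.0112). It passed in no other alternative (limma adjusted p up to 0.491, without treated 2). BOK, a BAX-like effector, stood at -0.30 log2 (SE 0.16, limma adjusted p = 0.504).

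Of 9 measured death receptors and ligands none was called. TNFRSF1A, the main TNF receptor, read 11.34, 11.23 and 10.55 log2 in basal and 10.72, 10.07 and 10.16 in treated cultures. Treated 1 lay above basal 3, so the groups overlapped, with a difference of -0.72 log2 (SE 0.27, limma adjusted p = 0.324) that was -0.50 with the array block (0.0368). TNFRSF12A, the receptor of TWEAK, read 8.67, 8.97 and 8.17 log2 in basal and 10.56, 9.15 and 8.90 in treated cultures. Treated 1 was far above the rest, as on the BCL2 probe sets Bt.13141.1.S1_at and Bt.18233.1.A1_s_at, and treated 3 lay below basal 2. Its difference of 0.93 log2 (SE 0.47, limma adjusted p = 0.469) was 0.42 without treated 1 and 1.30 with the array block (limma adjusted p = 0.0292).

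Between receptor and mitochondrion, none of the 6 adaptors and regulators was called. In treated cultures 5 of them stood lower, as did 5087 of 9155 genes by their brightest probe sets. The smallest differences were those of FADD (-0.05 log2) and DAXX (-0.04). RIPK1, a kinase of the receptor complex, stood at -0.36 log2 (SE 0.17, limma adjusted p = 0.435) and the adaptor TRADD at -0.28 (SE 0.26, limma adjusted p = 0.709). TRADD lay at -0.04 without basal 1 and -0.52 without basal 3. Of the caspases 2 of 7 had a probe set. The executioner CASP6 stood at 0.41 log2 (SE 0.21, limma adjusted p = 0.464), and at 0.19 without basal 1. CASP9, the caspase of the apoptosome, stood at -0.16 (SE 0.13, limma adjusted p = 0.675), and between -0.27 without treated 1 and -0.08 without treated 3.

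None of 6 apoptosome and mitochondrial factors was called. HTRA2, a mitochondrial protease that antagonises the inhibitors of apoptosis, stood at -0.62 log2 (SE 0.17, limma adjusted p = 0.193), and at -0.79 without basal 3 (0.0279). HTRA2 passed in no other alternative (limma adjusted p up to 0.525, without treated 3). Its other probe set stood at 0.09 log2. The channel VDAC2, which holds BAK1 at mitochondria, stood at 0.19 log2 (SE 0.09, limma adjusted p = 0.422). Of p53 regulators and targets 2 had a probe set, MDM2 at 0.35 log2 (SE 0.19, limma adjusted p = 0.52) and PERP at 0.02 (SE 0.09, limma adjusted p = 0.956).

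Among 4 inhibitor of apoptosis proteins none was called, but BIRC3 had the largest difference of the 41 genes. BIRC3, a ubiquitin ligase of TNF receptor signalling, read 6.46, 7.99 and 8.88 log2 on basal 1 to 3 and 9.78, 10.03 and 10.10 on treated 1 to 3. All treated arrays lay above all basal arrays, and the basal arrays were spread over a wide range. The difference was 2.19 log2 (SE 0.59), or 4.56-fold with a 95% interval of 1.68 to 12.4, and the limma adjusted p was 0.181. Its other probe set stood at 2.36 log2 (SE 0.63, limma adjusted p = 0.177), and the difference of the first ran from 1.53 without basal 1 to 2.74 without basal 3 (limma adjusted p = 0.0285). The first passed in no other alternative (limma adjusted p up to 0.493, without treated 2). BIRC5 (survivin), which also serves in mitosis, read 8.99, 8.95 and 8.73 log2 in basal and 8.40, 8.34 and 8.28 in treated cultures. All treated arrays lay below all basal arrays. The difference was -0.55 log2 (SE 0.10, limma adjusted p = 0.0945), and it passed both without basal 3 (-0.63, limma adjusted p = 0.0248) and with the array block (-0.50, limma adjusted p = 0.0327). In the other alternatives it did not pass, with a limma adjusted p of up to 0.352 (without treated 2).

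**Figure D4:**
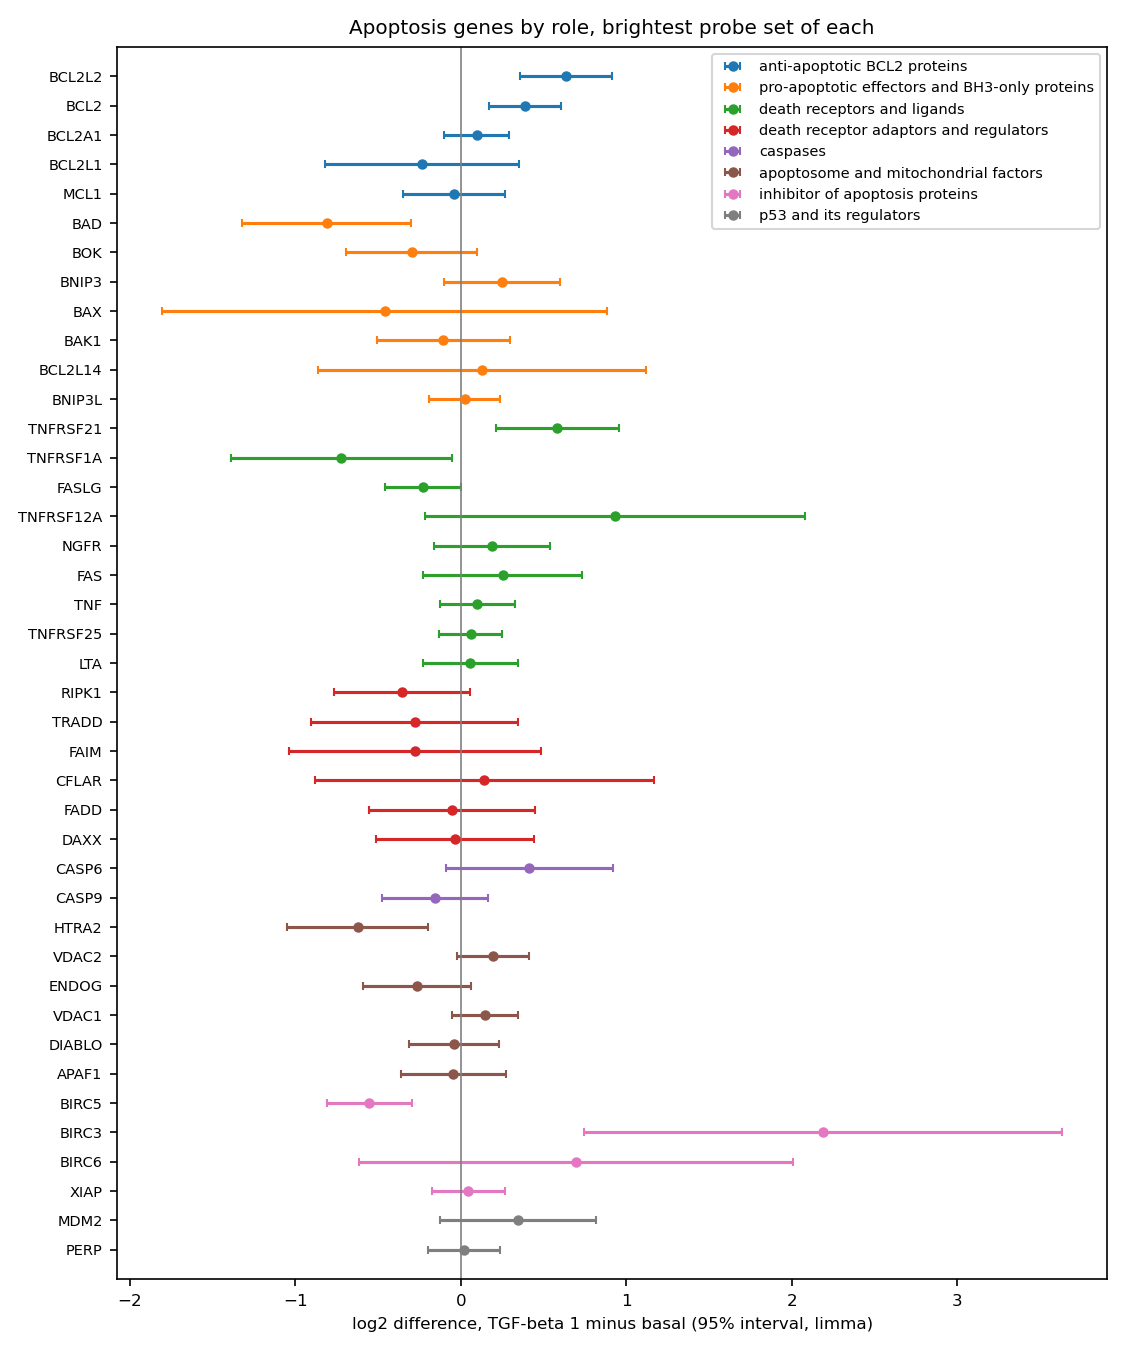
Difference between treated and basal cultures in log2 units (points) with 95% limma intervals (bars) for the 41 apoptosis genes with a probe set, 1 probe set a gene, coloured by role; members are included. BIRC3 stands at 2.19 with a wide interval, BCL2L2 at 0.63 and BAD at -0.81, and none of the 41 passed the threshold after adjustment.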

How the data were processed

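The authors deposited log2 expression values. The submitters' processing notes name RMA and affy, without versions. RMA subtracts background, equalises the distributions of the arrays by quantiles and summarises probes into probe sets, which compresses changes near background. Of 24128 probe sets, 112 AFFX controls were kept out of the tests. The array annotation gave 1 symbol to 13292 of the other 24016, several to 86 and none to 10638, and 13263 matched the RefSeq gene table of ARS-UCD2.0 by gene identifier, with 0 symbols changed. No coordinates were taken from it.

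Treated and basal arrays were fitted with group alone in limma 3.58.1 under R 4.3.3 (lmFit and eBayes, no filter) and tested two-sided, with Benjamini-Hochberg adjustment over all probe sets at 0.05. Standard errors and intervals are those of this fit. Besides the members, genes of the role lists were named where they passed, and otherwise the 2 non-members of each role with the smallest p. Members and lists were chosen with earlier results of these data known. The labels state no pairing of arrays, so the main fit used no block. Deviations from the group mean correlated at 0.672, -0.455 and 0.687 between same-numbered arrays 1 to 3. Between differently numbered arrays they ran from -0.783 (basal 3 with treated 1) to 0.653 (basal 3 with treated 2). With 3 arrays a group this cannot settle whether they pair. The fit was run on simulated data with independent noise on each array. The real arrays share variation that this leaves out, so it cannot show how many calls here are false. Alternatives were other normalizations, variance models, filters, blocks, a threshold of 0.1, 1 probe set per gene and leaving out each array. Figures were drawn with matplotlib 3.10.9.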

Additional observations from a re-analysis of the deposited data

How the results depend on the processing

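No member probe set passed the threshold in any of the alternatives run. At an unadjusted limma p under 0.05 stood 1 of 7 after a filter at the median, against 2182 of 12008 probe sets. There were 4 of 12 with basal 1, basal 2 and treated 1 as a block, against 5031 of 24016. Without basal 3 there were also 4 of 12, against 6445 of 24016, and the other alternatives gave 2 or 3. Over the whole table the count of 158 was 100 after a further quantile normalization, 87 with limma-trend, 1348 with the array split block (basal 1, basal 2 and treated 1 against the others), 543 at an adjusted p under 0.1, and from 1 to 2012 over the fits that left out 1 array, the highest without basal 3. With the replicate block it was 0 (limma, 4450 at an unadjusted p under 0.05), and no pathway gene passed. Whether equal replicate numbers mark shared cultures is not stated. The count of pathway genes was 4 with the array split block, 2 at an adjusted p under 0.1 and from 0 to 4 over the fits that left out 1 array. MCL1 changed sign with the array split block (0.0396). Over the fits that left out 1 array the difference ran from -0.13 to 0.041 log2 for MCL1, from -0.89 to 0.015 for BAX, from -0.27 to 0.81 for BCL2 Bt.13141.1.S1_at, from -0.24 to 0.88 for BCL2 Bt.18233.1.A1_s_at and from -0.036 to 0.064 for PERP. The other differences of members and named genes kept their sign. The causes were not tested. Dim probe sets such as those of FASLG limit what can be read, since RMA gives no detection call.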
